A study of Mus musculus with 33 samples.

Results

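The 9 genes that mark excitatory neurons of the cerebral cortex, Tbr1, Cux2, Fezf2, Foxp2, Rorb, Bhlhe22, Neurod6, Neurod2 and Slc17a7, were read by symbol from the count tables of frontal cortex, which list 23366 genes each. All 9 were present in both tables and passed the filter on low counts. They were divided by their textbook place in the cortex into 2 upper-layer genes (Cux2 and Rorb), 3 deep-layer genes (Tbr1, Fezf2 and Foxp2) and 4 genes shared by most excitatory neurons (Slc17a7, Neurod2, Neurod6 and Bhlhe22). RNA-Seq was done on the frontal cortex of 1-month-old C57BL/6 mice, 16 labelled female and 17 labelled male, with 1 pup taken from each litter. Their dams, and later the dams together with the pups, inhaled filtered air (6 females, 6 males), aerosol of a tobacco-flavoured e-cigarette liquid with 13 to 16 mg/mL nicotine (5 females, 6 males), or aerosol of the liquid without nicotine (5 females, 5 males). These groups are called air, nicotine and no nicotine, and all mice were of the same strain.

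Excitatory neurons of the cortex use glutamate, and Slc17a7 encodes the vesicular transporter (VGLUT1) that loads it into their synaptic vesicles. Neurod2, Neurod6 and Bhlhe22 encode basic helix-loop-helix transcription factors that act as these neurons mature. The remaining genes encode transcription factors with a laminar pattern. Cux2 marks the upper layers, Rorb is most abundant in layer IV, Fezf2 specifies subcerebral projection neurons of the deep layers, and Tbr1 and Foxp2 mark corticothalamic neurons of layer VI. Several are also used outside the cortex, and Foxp2 in particular is abundant in projection neurons of the striatum.

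Total counts per library ran from 19150562 to 27513174 in females and from 17845672 to 24787955 in males. Females and males were sequenced in separate runs and deposited as separate tables, so sex and run cannot be told apart and levels were compared within a table only. In 1 library labelled male, nicotine replicate 21, Xist stood at 219 CPM (normalized, the reads of a gene as a rate of the library's total) with 1 count on Y-linked genes, whereas the other libraries labelled male had at most 0.246 CPM and 2140 to 3247 such counts. It was kept under its label, and the number of these 9 genes that passed the threshold in each male comparison was 0 or 8 with and without it.

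Without nicotine, 8 of the 9 genes differed from air in each sex: 7 were lower and Foxp2 was higher, while Fezf2 did not pass the threshold (adjusted p below 0.01 in the quasi-likelihood test of edgeR). Of all genes tested, 7.03% were lower and 5.03% higher in females, and 7.47% were lower and 6.15% higher in males. The log2 fold changes of the 9 genes had a median of -0.86 in females and -0.83 in males, against 0.01 and 0.02 over all genes. In females the values of 5 genes lay below, and those of Foxp2 above, every air sample, against 6.27% of all genes below and 4.4% above. In males 6 genes lay below air and none above, against 6.94% and 5.48%. By exact two-sided permutation tests of each of the 7 lower genes, p ran from 0.00433 to 0.0173 in females and from 0.00433 to 0.00866 in males, where 0.00433 is the smallest that 6 against 5 samples allow.

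With nicotine, only 2 of the 9 genes passed in females, Bhlhe22 (lower) and Foxp2 (higher), and none in males. All 9 had an unadjusted p below 0.05 in females, as did 4258 of 15158 genes tested, and 7 did in males, as did 2203 of 15293. In each sex 8 of the 9 had a lower mean than air. The background was 2.32% of genes lower and 1.98% higher in females, and 0% in either direction in males. With the 3 male groups in 1 fit, no gene of the whole male table passed with edgeR or with limma-voom, whereas 140 passed with DESeq2 and 17 with edgeR in a fit of only the 2 groups, none of them among the 9. Without air replicate 30 or no nicotine replicate 7, 1 and 2 genes of the table passed with edgeR. In females 4 of the 9 genes lay below all air samples and 1 above, against 3.6% and 3.07% of all genes. In males 1 lay below and none above, against 1.24% and 0.804%.

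The counts in females rested on single libraries. Without nicotine, 3 genes passed when no nicotine replicate 3 or replicate 5 was left out, and 5 when replicate 2 was left out. The whole female table fell too, from 1829 genes called to 843, 1047 and 823 without replicates 3, 5 and 2. With nicotine, 5 genes passed when no nicotine replicate 1 was left out. Only 1, Bhlhe22, passed when any of air replicates 1, 2, 5 and 6 or nicotine replicates 1, 2, 5 and 6 was left out. The same held for no nicotine replicates 3, 4 and 5. Of the whole female table, 869 genes passed without no nicotine replicate 1. Without the other libraries named, 226 to 686 passed, against 651 with every library. In males 6 to 8 genes passed without nicotine and 0 with nicotine, whichever library was left out. The whole male table had 1521 to 2174 genes called without nicotine and 0 to 2 with nicotine in these fits.

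**Figure D1:**
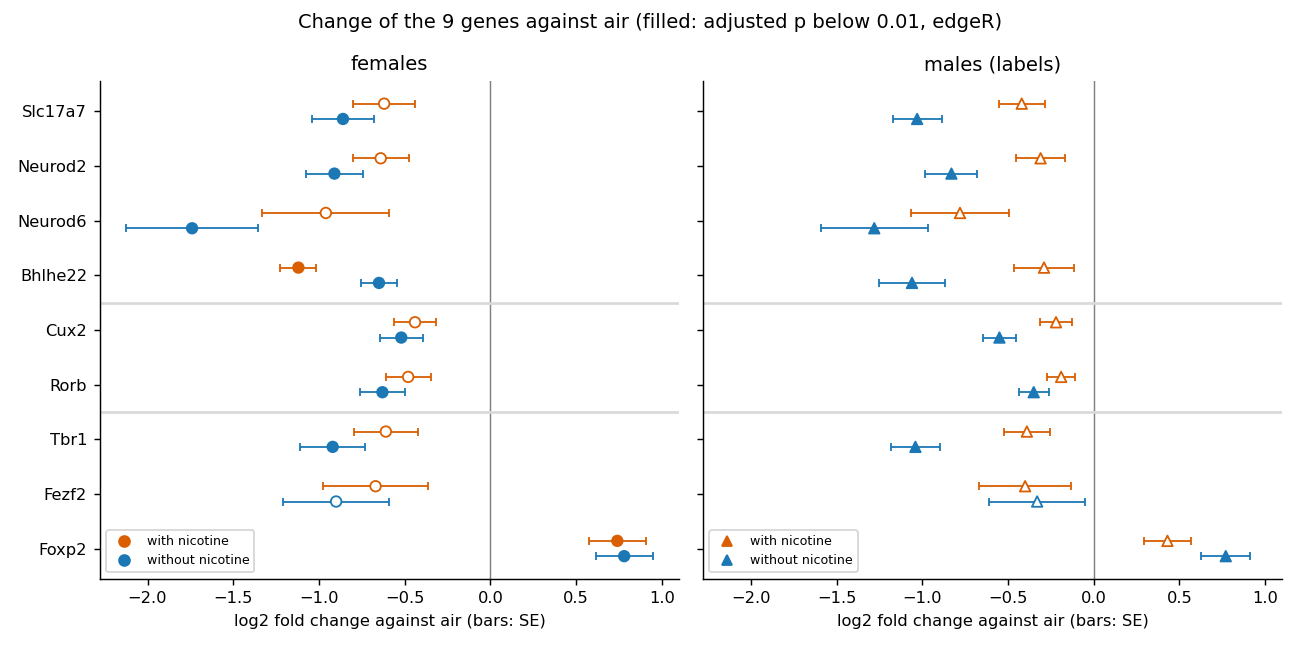
Log2 fold change against air (x axis, bars give the standard error) of the 9 genes (y axis; shared, upper-layer and deep-layer genes from top to bottom) in females and males, with nicotine in orange and without in blue. Filled symbols mark an adjusted p below 0.01: 8 genes without nicotine in each sex, 2 with nicotine in females and 0 in males.

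The stretches upstream of 4 of the genes that were lower without nicotine in both sexes are shown. These are Tbr1 and Slc17a7, which kept nearly the same ratio in every group, and the basic helix-loop-helix genes Neurod2 and Neurod6. Cux2 and Rorb were lower as well, and their windows are not shown. Each is the 250 bases before the transcription start in RefSeq (mouse build GRCm38.p6), read 5′ to 3′ along the gene. Capitals mark every CANNTG (E-box), the core that basic helix-loop-helix factors recognize.
Tbr1, chr2:61804203-61804452, plus strand: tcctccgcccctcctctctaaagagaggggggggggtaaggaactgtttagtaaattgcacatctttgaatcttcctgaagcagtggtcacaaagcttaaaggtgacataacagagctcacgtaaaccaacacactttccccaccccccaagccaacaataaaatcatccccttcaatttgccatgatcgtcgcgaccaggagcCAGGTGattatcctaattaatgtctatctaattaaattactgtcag
Slc17a7, chr7:45163671-45163920, plus strand: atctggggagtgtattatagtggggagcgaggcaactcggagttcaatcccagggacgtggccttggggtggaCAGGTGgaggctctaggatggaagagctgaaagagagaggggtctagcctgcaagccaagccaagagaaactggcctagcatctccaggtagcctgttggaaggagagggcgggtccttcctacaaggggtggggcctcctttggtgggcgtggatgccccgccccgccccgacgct
Neurod2, chr11:98329646-98329895, minus strand: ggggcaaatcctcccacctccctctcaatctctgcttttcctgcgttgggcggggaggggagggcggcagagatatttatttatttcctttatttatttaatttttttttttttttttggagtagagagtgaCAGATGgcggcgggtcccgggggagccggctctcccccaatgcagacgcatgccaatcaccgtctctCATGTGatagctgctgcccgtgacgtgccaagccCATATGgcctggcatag
Neurod6, chr6:55681264-55681513, minus strand: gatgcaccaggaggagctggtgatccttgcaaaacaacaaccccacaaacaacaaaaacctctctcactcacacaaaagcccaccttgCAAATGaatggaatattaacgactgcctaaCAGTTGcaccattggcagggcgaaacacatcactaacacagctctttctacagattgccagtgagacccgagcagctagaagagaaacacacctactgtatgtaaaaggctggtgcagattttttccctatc
Neurod2 held 3 E-boxes, at 118, 51 and 17 bases before the start, and the first reads CAGATG and the last CATATG. Neurod6 held 2, at 162 and 132 bases, Tbr1 held 1 at 46 bases and Slc17a7 held 1 at 177 bases. Among the windows not shown, that of Fezf2 and that of Rorb at chr19:19111197-19111446 held 0. The other Rorb window, at chr19:19001118-19001367, held 2, and those of Cux2 held 1 and 2. Of 32851 such windows, 66.2% held at least 1 CANNTG, 14.4% held CAGATG on either strand and 3.46% held CATATG, so an E-box in this window is common. The T-box core GGTGTGA, the letters recognized by factors like Tbr1, was searched on both strands, was found in 3.33% of windows and was not in those of the 7 genes with a RefSeq entry. Foxp2 and Bhlhe22 had no entry in the promoter table.

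Levels of different genes were compared per kilobase of merged exon (CPM per kb). In air, Slc17a7 was the most abundant by a wide margin, with 858 ± 75.6 CPM per kb in females (SD, n = 6) and 768 ± 59.2 in males (SD, n = 6). Tbr1 followed with 34.7 ± 5.22 in females and 29.3 ± 3.17 in males. In the next tier, Neurod6, Bhlhe22 and Neurod2 had means of 21.3 to 22.2 CPM per kb in females and 17.4 to 20.1 in males, and their ranges overlapped. Cux2 (6.99 and 8.16), Rorb (6.55 and 5.03), Fezf2 (4.33 and 3.69) and Foxp2 (2.12 and 2.38) were the least abundant. Slc17a7 stood apart from Tbr1, and the middle tier from Cux2, in both sexes. Other neighbours in this order overlapped, except that in males Tbr1 stood apart from Neurod2 and Cux2 from Rorb. Foxp2 was the lowest of the 9 in air in both sexes, but its mean passed that of Fezf2 in all 4 exposed groups and that of Rorb in males without nicotine, where the ranges of Foxp2 (3.18 to 5.24) and Rorb (3.53 to 4.34) overlapped.

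**Figure D2:**
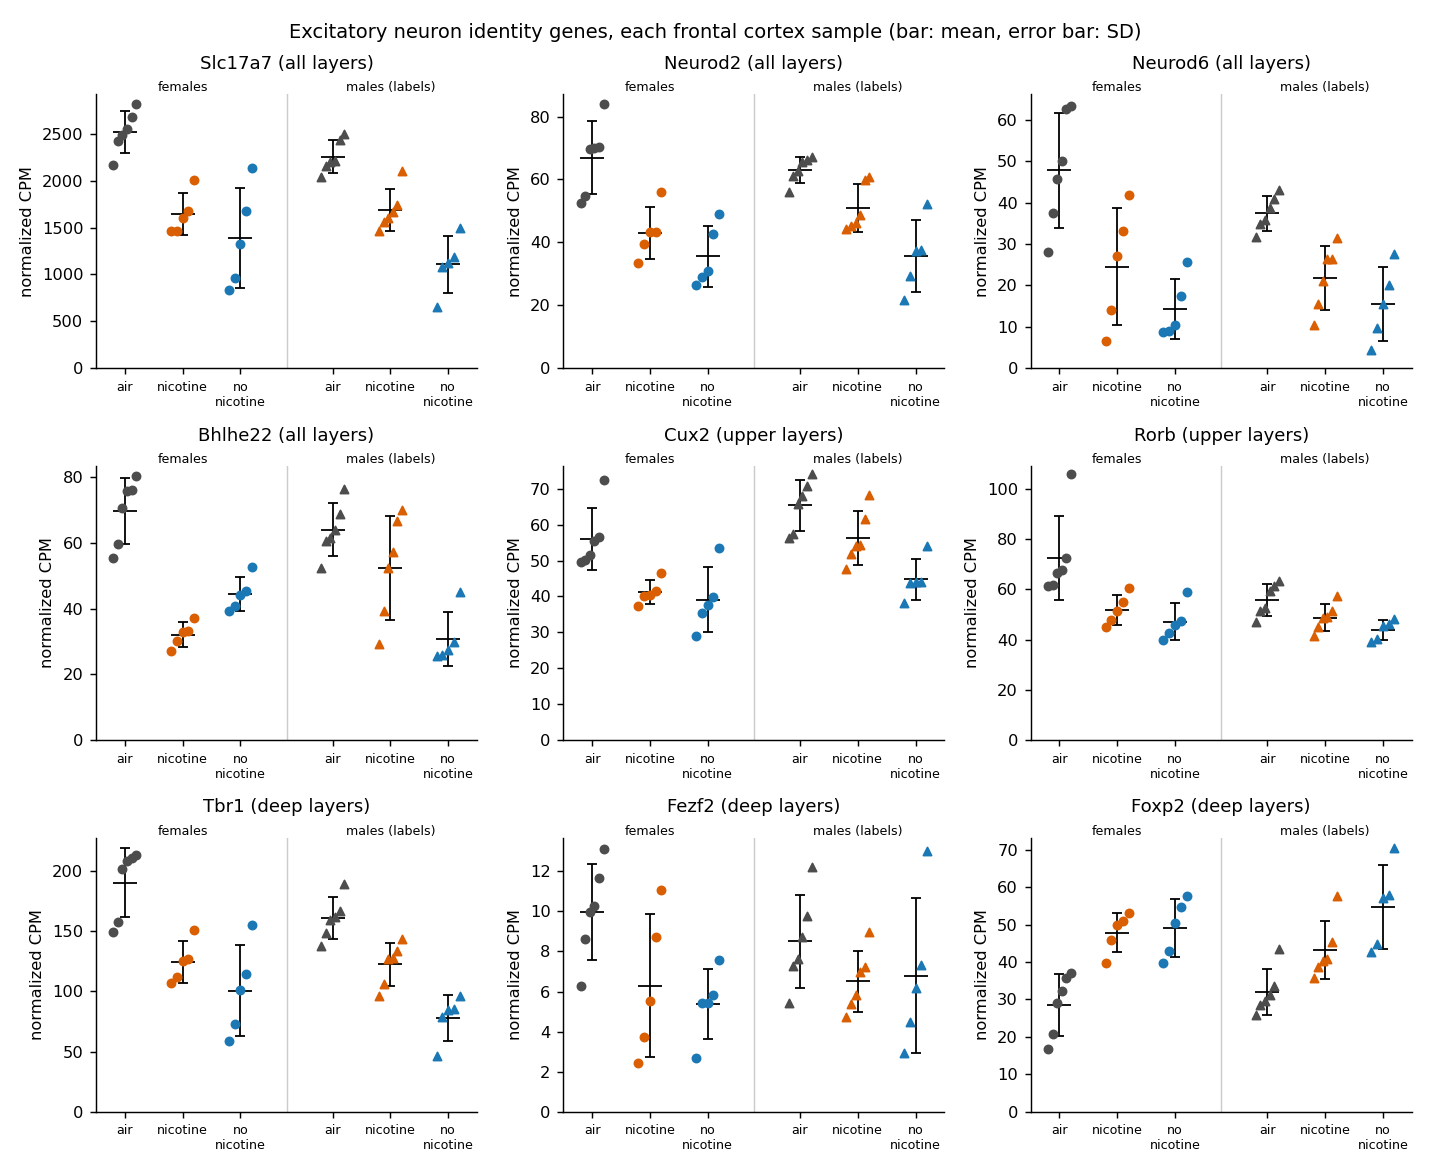
Normalized CPM (y axis, starting at 0) of each of the 9 genes in every sample, by group and sex (circles, females; triangles, libraries labelled male; horizontal bar, mean; error bar, SD). Slc17a7 fell from 2523 CPM in air to 1388 without nicotine in females and from 2257 to 1108 in males, and Foxp2 is the 1 panel in which the exposed groups stand higher.

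Slc17a7 (chr7:52419291-52431508 in mm9, plus strand, 12 merged exons) had a lowest, median and highest value of 2173, 2521 and 2817 CPM in female air samples. The 5 female nicotine samples had 1461, 1464, 2012, 1607 and 1676 CPM, and the 5 without nicotine had 2142, 835, 962, 1680 and 1323 CPM. Every exposed female sample was below every air sample, and the spread without nicotine was wide, with replicate 1 close to air. The log2 fold change was -0.86 (SE 0.183, adjusted p = 0.00335) without nicotine and -0.62 (SE 0.182, adjusted p = 0.0343) with nicotine, and the former lost its call without no nicotine replicate 3 or 5. In males, air samples had 2037, 2208 and 2496 CPM (lowest, median and highest), nicotine samples 1469, 1632 and 2108 CPM, and the 5 samples without nicotine 1077, 654, 1125, 1186 and 1497 CPM. The no nicotine samples did not overlap with air and nicotine replicate 16, the highest of its group, did. The change was -1.03 (SE 0.143, adjusted p = 7.72e-05) without nicotine and -0.42 (SE 0.133, adjusted p = 0.15) with nicotine. In bulk tissue, fewer excitatory neurons, less of this RNA per neuron and a larger share of other cells or regions in the dissected piece cannot be told apart.

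Neurod2 (chr11:98186729-98190962, minus strand, 2 merged exons) fell without nicotine by 0.91 on the log2 scale in females (SE 0.165, adjusted p = 0.00143) and by 0.83 in males (SE 0.152, adjusted p = 0.000716). Female air samples had 52.6, 69.9 and 84.0 CPM (lowest, median, highest), and those without nicotine 48.9, 26.3, 28.8, 42.7 and 30.8 CPM. Male air samples had 56.1, 64.1 and 67.3 CPM, and those without nicotine 29.4, 21.6, 37.4, 37.3 and 52.3 CPM. In neither sex did the groups overlap. The call held under all 25 alternatives in each sex. With nicotine the values were -0.64 (SE 0.164, adjusted p = 0.0178) in females and -0.31 (SE 0.142, adjusted p = 0.319) in males.

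Neurod6 (chr6:55627812-55631257, minus strand, 2 merged exons) had the lowest fold change of the 9 genes in both sexes without nicotine: -1.74 in females (SE 0.385, adjusted p = 0.00416) and -1.28 in males (SE 0.312, adjusted p = 0.00576). Female air samples ran from 27.97 to 63.2 CPM (median 47.8), against 25.6, 10.5, 8.66, 17.5 and 9.04 CPM without nicotine. Male air samples ran from 31.6 to 43.0 CPM (median 37.2), against 9.81, 4.47, 15.4, 20.1 and 27.7 CPM. The groups were apart in both sexes, but the exposed samples varied more, with a coefficient of variation of 51% and 58% against 29.1% and 11.2% in air. The calls were lost in females without air replicate 5 or no nicotine replicate 2, 3 or 5, and in males without air replicate 30, 31, 38 or 39 or no nicotine replicate 2 or 4, with adjusted p up to 0.0153 and 0.0171. With nicotine, the female samples were spread from 6.67 to 41.8 CPM and overlapped with air (log2 fold change -0.96, SE 0.37, adjusted p = 0.0959). The male nicotine samples, 10.4 to 31.4 CPM, all lay below air, with the highest of them just under the lowest air sample (-0.78, SE 0.288, adjusted p = 0.218; exact two-sided permutation p = 0.00216, the smallest 6 against 6 samples allow).

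Bhlhe22 (chr3:17954325-17957509, plus strand, 1 exon), a transcriptional repressor of the same factor class, was the 1 gene lower with nicotine past the threshold. Female air samples had 55.2, 73.1 and 80.5 CPM (lowest, median, highest), the nicotine samples 30.1, 33, 37.1, 33.3 and 27.0 CPM, and those without nicotine 44.0, 39.3, 52.5, 45.3 and 40.6 CPM. The 3 female groups did not overlap with one another. The log2 fold change against air was -1.12 with nicotine (SE 0.105, adjusted p = 4.9e-05) and -0.65 without (SE 0.103, adjusted p = 0.000841). In males the order of the exposed groups was the opposite: air samples had 52.5, 62.8 and 76.5 CPM, nicotine samples 29.1, 54.7 and 70.0 CPM, and those without nicotine 29.8, 25.6, 27.3, 25.9 and 45.1 CPM. The male change was -1.06 without nicotine (SE 0.192, adjusted p = 0.000637) and -0.29 with nicotine (SE 0.177, adjusted p = 0.483). The 3 calls against air held under each of the 25 alternatives run for each.

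Of the upper-layer genes, Cux2 (chr5:122308396-122500111, minus strand, 30 merged exons) fell without nicotine by 0.52 in females (SE 0.125, adjusted p = 0.00647) and by 0.55 in males (SE 0.0971, adjusted p = 0.000553) on the log2 scale. Female air samples had 49.8, 53.5 and 72.5 CPM (lowest, median, highest), those with nicotine 41.6, 40.1, 46.5, 37.3 and 40.5 CPM, and those without 53.5, 28.9, 35.5, 39.7 and 37.6 CPM. No nicotine replicate 1 lay within the air range and the other 4 below it. Male air samples had 56.2, 66.9 and 74.1 CPM, and those without nicotine 44.1, 43.9, 44.0, 38.1 and 53.9 CPM, all below air. The male call held under all 25 alternatives, whereas the female call was lost without air replicate 2, 4 or 6 or no nicotine replicate 2, 3, 4 or 5 (adjusted p up to 0.0216) and in a fit of only the 2 groups (adjusted p = 0.0158). With nicotine the change was -0.44 in females (SE 0.125, adjusted p = 0.0281) and -0.22 in males (SE 0.0916, adjusted p = 0.283). A pseudogene annotated under the same symbol shares 414 exon bases with Cux2, and reads from it could not be separated.

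Rorb (chr19:19005095-19185686, minus strand, 12 merged exons), a nuclear receptor, fell without nicotine by 0.63 in females (SE 0.132, adjusted p = 0.00322) and by 0.35 in males (SE 0.0865, adjusted p = 0.0062). Female air samples had 61.5, 67.0 and 106 CPM (lowest, median, highest), and those without nicotine 59.1, 47.4, 40.0, 46.0 and 42.6 CPM, all below air. Male air samples had 46.8, 55.8 and 63.4 CPM, and those without nicotine 40.2, 39.1, 45.3, 46.1 and 48.1 CPM, with replicate 7 above the lowest air sample. The female call was lost without no nicotine replicate 3 or 5 (adjusted p up to 0.0126), and the male call without air replicate 30, 31 or 38 or no nicotine replicate 2, 3 or 4 and when library totals replaced TMM (adjusted p up to 0.0206). With nicotine the change was -0.48 in females (SE 0.132, adjusted p = 0.024) and -0.19 in males (SE 0.0821, adjusted p = 0.282).

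Of the deep-layer genes, Tbr1 (chr2:61640987-61652171, plus strand, 8 merged exons) moved much as Slc17a7 did. The female air samples had 150, 205 and 213 CPM (lowest, median, highest), nicotine samples 112, 107, 151, 127 and 125 CPM, and those without nicotine 155, 58.5, 72.9, 115 and 101 CPM. Replicate 3 with nicotine and replicate 1 without nicotine lay within the air range, and the other exposed females below it. Male air samples had 138, 161 and 189 CPM, nicotine samples 96.2, 127 and 144 CPM, and those without nicotine 78.3, 45.9, 84.6, 85.4 and 95.9 CPM, the last group entirely below air. The log2 fold change without nicotine was -0.92 in females (SE 0.188, adjusted p = 0.00262, 0.0101 without no nicotine replicate 3) and -1.04 in males (SE 0.142, adjusted p = 6.63e-05). With nicotine it was -0.61 (SE 0.187, adjusted p = 0.0403) and -0.39 (SE 0.133, adjusted p = 0.174).

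Fezf2 (chr14:13174406-13178379, minus strand, 5 merged exons) was the scarcest of the 9 in counts, with 60 to 348 reads per library, and in none of the comparisons or alternatives did its adjusted p fall below 0.01. In females, air samples had 6.25, 10.1 and 13.1 CPM, nicotine samples 11.1, 3.71, 8.72, 5.53 and 2.43 CPM, and those without nicotine 5.42, 7.56, 5.42, 5.83 and 2.68 CPM. Male air samples had 5.41, 8.17 and 12.2 CPM, nicotine samples 4.71, 6.39 and 8.97 CPM, and those without nicotine 2.93, 4.47, 6.20, 7.34 and 13.0 CPM. All exposed groups overlapped with air. The log2 fold change without nicotine was -0.9 in females (SE 0.31, adjusted p = 0.0425) and -0.33 in males (SE 0.279, adjusted p = 0.425), and with nicotine -0.67 (SE 0.307, adjusted p = 0.161) and -0.4 (SE 0.268, adjusted p = 0.544). The male value without nicotine depended on single libraries. It was -0.705 without no nicotine replicate 7 and -0.142 without no nicotine replicate 2.

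Foxp2 (chr6:14851349-15391977, plus strand, 26 merged exons) was the 1 gene of the 9 that was higher than air. In females, air samples had 16.7, 30.6 and 37.02 CPM (lowest, median, highest), nicotine samples 51.1, 53.0, 45.8, 49.8 and 39.7 CPM, and those without nicotine 39.6, 57.8, 42.9, 50.5 and 54.7 CPM, all above air. Male air samples had 25.9, 30.4 and 43.6 CPM, nicotine samples 35.8, 40.6 and 57.6 CPM, and those without nicotine 57.9, 70.5, 42.8, 57.1 and 44.9 CPM. In males the highest air sample, replicate 37, lay within both exposed groups. The log2 fold change without nicotine was 0.78 in females (SE 0.167, adjusted p = 0.00346) and 0.77 in males (SE 0.143, adjusted p = 0.000768). With nicotine it was 0.74 in females (SE 0.167, adjusted p = 0.00895) and 0.43 in males (SE 0.139, adjusted p = 0.153). The female nicotine call was lost without any of 12 of the 16 libraries, namely air replicates 1, 2, 5 and 6, all 5 nicotine replicates and no nicotine replicates 3, 4 and 5 (adjusted p up to 0.0283), and in a fit of only the 2 groups (adjusted p = 0.0155), and the female no nicotine call without no nicotine replicate 2 or 5. Over its protein-coding transcripts, 11 of 12076 windows of 50 bases (0.0911%) also occur in transcripts of other genes.

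Markers of striatal projection neurons, where Foxp2 is also used, moved with it. Their 13 tested genes summed to 1163 to 2837 CPM in female air samples, 2593 to 3531 CPM with nicotine and 2265 to 2861 CPM without, and to 1628 to 2854, 1823 to 3646 and 1968 to 5196 CPM in males. All 13 had a positive log2 fold change in each of the 4 comparisons with air. The threshold was passed by 5 of them with nicotine and 3 without in the female table, and by 0 with nicotine and 5 without in the male table. The shares of all genes that were higher were, in the same order, 1.98% and 5.03% in females and 0% and 6.15% in males. The 3 striatal genes named by rule were Six3 (1.14 in females and 1.1 in males without nicotine), Isl1 (1.16 and 1.14) and Tac1 (0.72 and 0.78). Within the air group alone, the female sample with the fewest striatal counts (replicate 2) had the lowest Foxp2. The same was true of male replicate 31. Some other samples did not follow this order. Female air replicates 3 and 4 had striatal sums of 2512 and 2837 CPM with 37.02 and 35.76 CPM of Foxp2. Every female sample without nicotine had more Foxp2 (39.64 to 57.75 CPM), at sums of 2265 to 2861 CPM. Female nicotine replicate 3 had the highest sum of its group (3531 CPM) with 45.84 CPM of Foxp2, below the group median of 49.83 CPM. The part of striatal cells in the Foxp2 values was not tested.

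**Figure D3:**
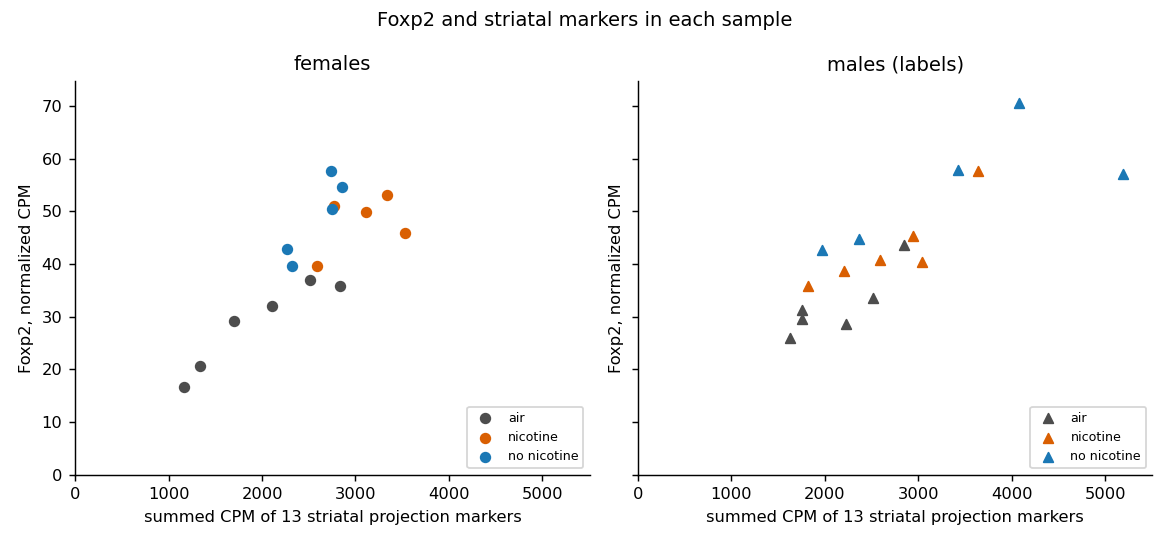
Foxp2 (y axis, normalized CPM) against the summed CPM of 13 striatal projection neuron markers (x axis) in each sample, by group, for females and males. The points run from 1163 CPM of striatal markers with 16.7 CPM of Foxp2 to 5196 CPM with 57.1 CPM, and most air samples lie at the lower left of their panel.

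Nicotine and no nicotine groups were also compared with each other. None of the 9 genes passed in either sex with edgeR, while 0% of all genes passed in females (1267 with an unadjusted p below 0.05, and 0 with adjusted p below 0.01 by DESeq2 or limma-voom) and 0.248% in males. In females 1 of the 9 had an unadjusted p below 0.05, Bhlhe22, which was lower with nicotine (-0.47, SE 0.109, adjusted p = 0.574) with no overlap of the samples. In males 6 of the 9 did, as did 3071 of 15293 genes tested. Tbr1 (0.65, SE 0.142, adjusted p = 0.0205), Slc17a7 (0.61, adjusted p = 0.0252) and Bhlhe22 (0.77, SE 0.192, adjusted p = 0.035) had higher values with nicotine than without. All 3 passed with DESeq2, none passed with limma-voom, and 4 genes passed with edgeR when male no nicotine replicate 7 was left out and 1 (Bhlhe22) when nicotine replicate 19 was. The whole male table had 452, 59, 161 and 246 genes called in these fits, in the same order, against 38 with edgeR and every library.

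Whether each gene differed in its response between the female and male tables was tested with all 6 groups fitted together. None of the 9 passed, with 0% of 15105 genes past the threshold in either comparison (978 with nicotine and 742 without had an unadjusted p below 0.05, and DESeq2 called 1 and 0 genes, none of the 9). The smallest p was that of Bhlhe22 with nicotine, where the female change was lower than the male one by a log2 difference of -0.82 (SE 0.223, unadjusted p = 0.00091, adjusted p = 0.349). Without nicotine its difference was 0.42 (SE 0.227, adjusted p = 0.945). For Foxp2 and Cux2 without nicotine the differences were 0.01 (SE 0.232) and 0.04 (SE 0.164).

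The laminar question was addressed by ratios within each sample, which are given as values without a test. The mean log2 CPM of Tbr1, Fezf2 and Foxp2 minus that of Cux2 and Rorb changed from air by 0.24 and 0.21 in females (with and without nicotine) and by 0.09 and 0.19 in males, and the groups overlapped in each case. Its sign rested on Foxp2: with Tbr1 and Fezf2 alone as deep-layer genes, the changes were -0.27 and -0.38 in females and -0.18 and -0.32 in males, again with overlap. Neither form of the difference separated an exposed group from air, while within the deep-layer genes Foxp2 parted from Tbr1.

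Tbr1 kept its ratio to Slc17a7. The log2 ratio was -3.74 ± 0.142 in female air samples (SD, n = 6), -3.72 ± 0.0405 with nicotine (n = 5) and -3.78 ± 0.0698 without (n = 5), and -3.82 ± 0.093, -3.79 ± 0.128 and -3.82 ± 0.0873 in males. Neurod2 stayed near its air ratio too, with changes of -0.01 and 0.01 in females and 0.1 and 0.19 in males. The ratio of each upper-layer gene to Slc17a7 was higher without nicotine, by 0.41 (Cux2) and 0.33 (Rorb) in females and by 0.53 and 0.73 in males, and only Rorb in males stood apart from air. A higher ratio without nicotine was not particular to the upper layers. Foxp2 changed by 1.77 in females and 1.84 in males, apart from air in both. Fezf2 changed by 0.02 and 0.62 and Bhlhe22 by 0.3 and -0.01, with overlap. The ratio of Neurod6 to Slc17a7 was lower, by -0.88 in females, where the groups did not overlap, and by -0.44 in males, where they did.

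The log2 ratio of Foxp2 to Tbr1 was -2.78 ± 0.595 in female air samples, -1.37 ± 0.311 with nicotine and -0.96 ± 0.707 without, and -2.34 ± 0.303, -1.51 ± 0.387 and -0.5 ± 0.681 in males. All 4 exposed groups stood entirely above air. In male no nicotine replicate 3, Foxp2 (70.5 CPM) exceeded Tbr1 (45.9 CPM).

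**Figure D4:**
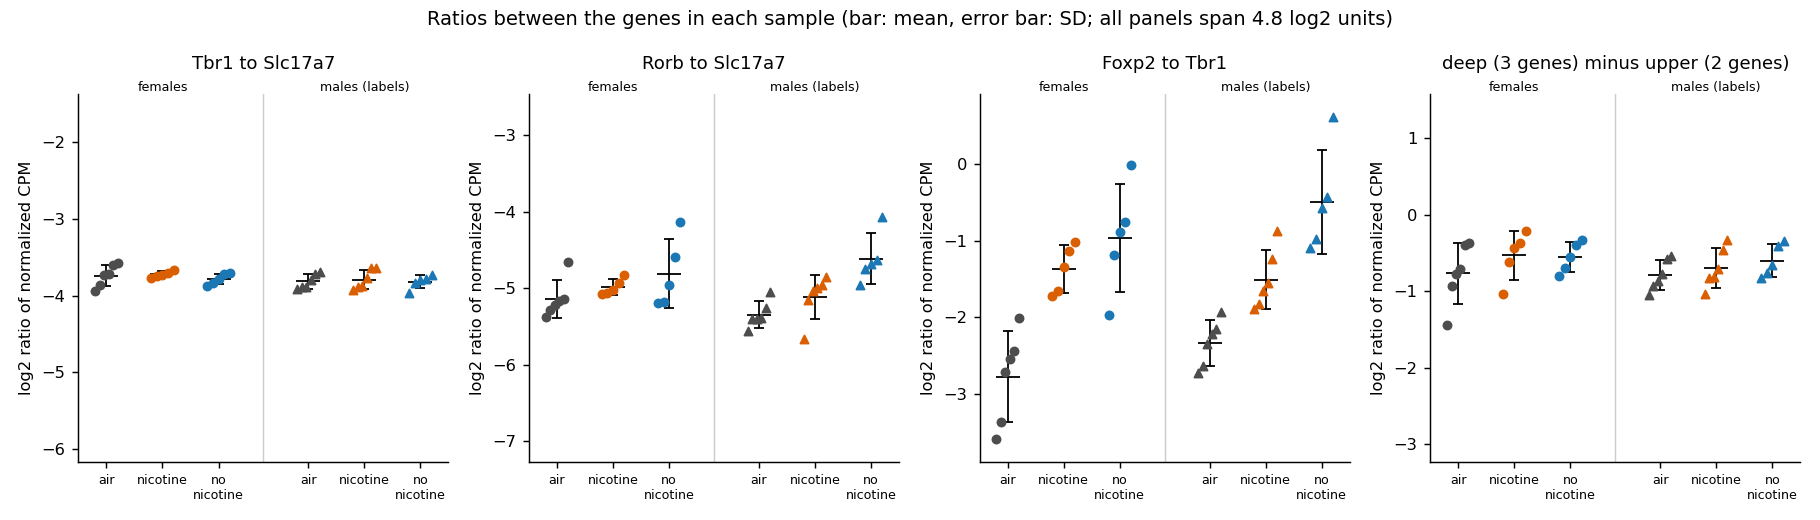
Log2 ratios of normalized CPM (y axis, all panels spanning the same length) in each sample by group and sex, with mean and SD: Tbr1 to Slc17a7, Rorb to Slc17a7, Foxp2 to Tbr1, and the mean of the 3 deep-layer minus that of the 2 upper-layer genes. The Tbr1 to Slc17a7 ratio keeps a mean between -3.72 and -3.82 in all groups, while Foxp2 to Tbr1 rises from a mean of -2.78 to -0.96 in females and from -2.34 to -0.5 in males.

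Deviations of single samples from their group means followed these ratios in part. Across the 16 female and 17 male samples, these deviations of Tbr1 and Slc17a7 had r = 0.96 and 0.925. Foxp2 had r = -0.374 in females and -0.512 in males with Tbr1, -0.748 and -0.372 with Rorb, and -0.28 and -0.636 with Bhlhe22. Some pairs were weak in 1 sex. With Slc17a7, Cux2 had r = 0.807 in females and 0.189 in males, Bhlhe22 0.0394 and 0.467, and Fezf2 -0.0373 and 0.508. These are descriptions across libraries that share depth and dissection.

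Other markers of excitatory neurons were read from lists. Of 10 further genes shared by most excitatory neurons, 7 were lower without nicotine in females and 6 in males and none was higher, with 3 lower in females with nicotine and 0 in males. The share of all genes that was lower was 7.03% in females and 7.47% in males without nicotine, and 2.32% and 0% with nicotine. The median log2 fold change of the 10 genes without nicotine was -0.61 in females and -0.69 in males. Mef2c, an activity-regulated transcription factor, fell by 0.91 and 0.89, and Nptx1, a synaptic pentraxin, fell by 0.63 and 0.76.

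The laminar lists moved less as a whole. Of 16 further upper-layer genes, 3 were lower and 1 higher without nicotine in females, and 4 were lower and 1 higher in males, with medians of -0.24 and -0.09. With nicotine 1 was lower and 1 higher in females and none passed in males. Kcnh5 (-0.91 in females and -0.77 in males), Stard8 (-0.79 and -0.62) and Rasgrf2 (-0.3 and -0.55) were lower in both sexes. Of 20 further deep-layer genes, 4 were lower and 1 higher in each sex without nicotine, with medians of -0.04 and -0.16, and 2 were lower in females with nicotine and none in males. Among all genes without nicotine, 7.03% were lower and 5.03% higher in females, and 7.47% and 6.15% in males. With nicotine the female shares were 2.32% and 1.98%. Without nicotine, 1 higher gene of 16 or of 20 lay near the share of all genes. Bmp3 (-0.79 and -1.56) and Sox5 (-0.56 and -0.44), a transcription factor of corticofugal neurons, were lower in both sexes. Summed CPM of the upper-layer list ran from 1198 to 1413 in female air samples, from 1073 to 1259 with nicotine and from 1026 to 1262 without. That of the deep-layer list ran from 681 to 865, from 818 to 895 and from 804 to 870. In males the upper-layer sums were 1149 to 1322, 1042 to 1364 and 983 to 1272, and the deep-layer sums 795 to 892, 809 to 890 and 793 to 970. All exposed groups overlapped with air in these sums.

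The closest family relatives of the 9 genes moved in both directions. Of 11 tested in females, 1 was lower and 2 higher without nicotine, against 7.03% and 5.03% of all genes, and 1 was lower and 1 higher with nicotine, against 2.32% and 1.98%. Of 12 tested in males, 2 were lower and 2 higher without nicotine, against 7.47% and 6.15%, and none passed with nicotine. Neurod1 fell by 0.58 and 1.18 without nicotine. Slc17a8, which encodes the transporter VGLUT3, rose by 0.65 and 0.7, and Fezf1 rose by 2.37 and 1.67 from low levels (0.43 ± 0.199 CPM in female and 0.676 ± 0.452 CPM in male air samples). Slc17a6, which encodes VGLUT2, the transporter of thalamic and other subcortical neurons, had 55.6 ± 7.33 CPM in female air samples and 78.4 ± 14.7 CPM without nicotine (0.5, adjusted p = 0.0417), and 47.5 ± 6.81 and 60.3 ± 14.4 CPM in males (0.34, adjusted p = 0.159). For other relatives, the log2 fold changes without nicotine were -0.17 and -0.05 for Cux1, -0.16 and -0.58 for Eomes, -0.42 and 0.2 for Foxp1, 0.1 and -0.04 for Foxp4, -1.25 and -0.48 for Neurod4, and -0.55 and -0.44 for Rora in females and males. Of these, Rora passed, in males. Tbx21, tested in males alone, had -1.27.

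**Figure D5:**
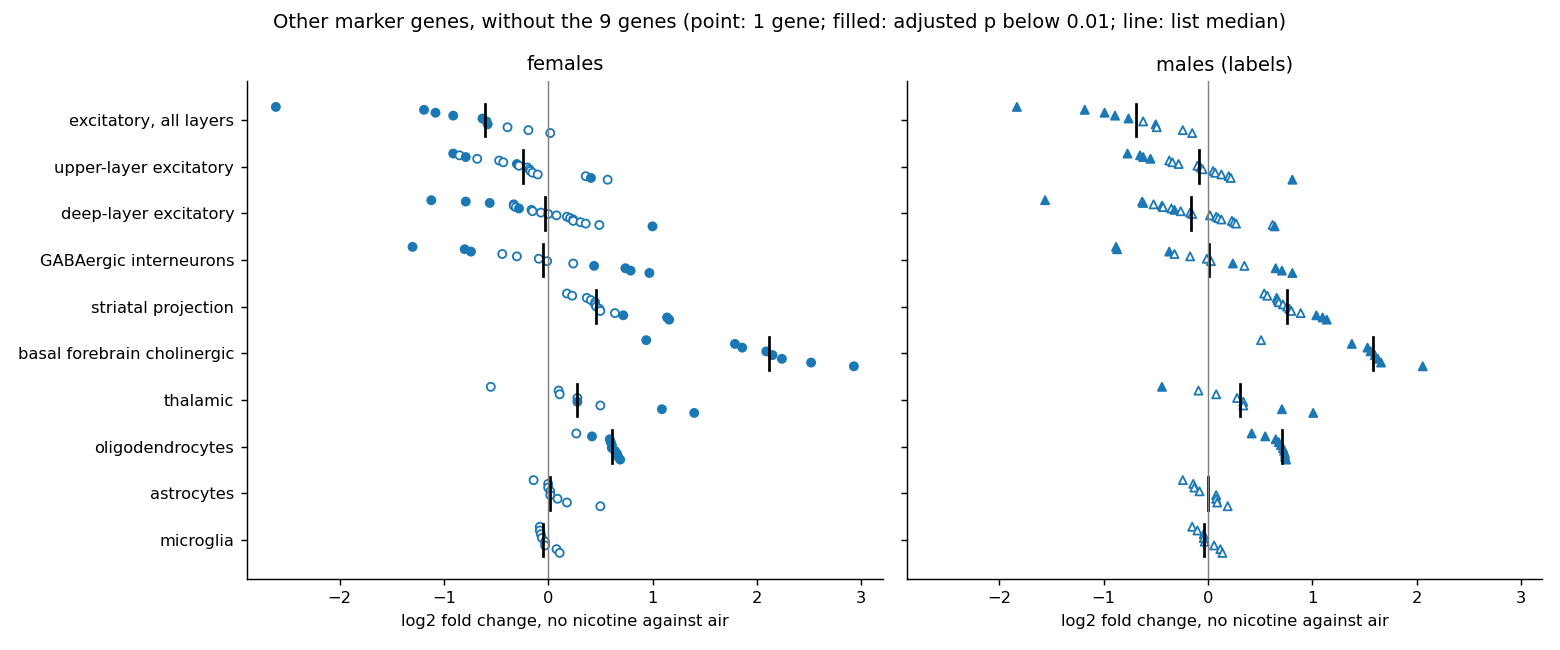
Log2 fold change without nicotine against air (x axis) of further marker genes, 1 point per gene, in 10 lists (y axis) for females and males; filled points have an adjusted p below 0.01 and the line is the list's median. The list of genes shared by excitatory neurons has medians of -0.61 and -0.69, and the basal forebrain cholinergic list has medians of 2.12 and 1.58.

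Markers of other cells moved with the fall of these genes, and their part in it was not tested. The share of all genes that was higher was 1.98% with and 5.03% without nicotine in females, and 0% and 6.15% in males. Of 10 oligodendrocyte genes, females had 10 higher with nicotine and 9 without, and males had 0 and 10, and their summed level rose from 8458 to 10161 CPM in female air samples to 11384 to 17086 CPM without nicotine and from 9699 to 11852 CPM to 14120 to 24153 CPM in males. Mbp, Mag and Cnp, which encode myelin proteins, were higher by 0.59 to 0.75. Of 8 basal forebrain cholinergic genes, 7, 8, 0 and 7 were higher in the same order, with sums of 22.2 to 82.4 CPM in female air samples against 112 to 293 CPM without nicotine, and 37.6 to 85.1 against 115 to 241 CPM in males. Slc18a3, Chat and Slc5a7, the core genes of acetylcholine synthesis and transport, had log2 fold changes of 1.38 to 2.15 without nicotine.

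Fewer of the other regional markers passed the threshold. Of 8 thalamic genes, 3 were higher than air in females with nicotine and 3 without, and 2 were higher and 1 (Rora) lower in males without nicotine, with Tcf7l2 (1.09 and 0.71) and Gbx2 (1.4 and 1.01) higher in both sexes. Of 6 hypothalamic genes, 1 passed in males without nicotine, Oxt (2.54). All 6 had a positive log2 fold change in each comparison with air, with medians of 1.08 with and 1.79 without nicotine in females and 0.96 and 1.6 in males. Their sums were low, at 4.06 to 15.2 CPM in female and 4.97 to 19 CPM in male air samples. None of 5 or 6 olfactory bulb genes passed, and Cdhr1 had -0.55 and -0.9. Of 12 genes of cortical GABAergic interneurons, 3 were lower and 4 higher without nicotine in each sex: Vip was lower (-0.8 and -0.88), and Slc32a1 (0.74 and 0.71) and Lhx6 (0.97 and 0.81) were higher. With nicotine 1 was lower and 2 higher in females, and none passed in males. Among all genes without nicotine, 7.03% were lower and 5.03% higher in females, and 7.47% and 6.15% in males. With nicotine the shares were 2.32% and 1.98% in females and 0% in males.

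None of the 8 astrocyte, 8 microglia and 7 endothelial genes passed in any comparison with air, with Gja1 at 0.18 and 0.19, C1qb at 0.11 and 0.14 and Tek at -0.08 and -0.23. Of 6 choroid plexus genes, 2 were higher in males without nicotine (against 6.15% of all genes), Clic6 among them (1.44), and none passed in females. No tested gene of these lists was at 0 in every sample of a group.

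The genes whose log2 CPM followed the 9 most closely were ranked by the smaller Pearson r of the female (n = 16) and male (n = 17) tables. These values span the treatment groups and share library and dissection, and carry no test. For Tbr1 they were Sstr3 (0.965), Sv2b (0.957) and Pip4k2c (0.954), and for Slc17a7 they were Fam81a (0.976), Stx1a (0.971) and Faah (0.966). For Cux2 they were Tshz3 (0.926), Pacsin1 (0.911) and Cacna1a (0.905). For Bhlhe22 they were Rilpl1 (0.903), Ildr2 (0.896) and BC018242 (0.893).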

How the data were processed

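RNA-Seq values of frontal cortex were the deposited read counts per gene, 1 table per sex, which the authors made from single-end reads by aligning them to mm9 transcripts (Bowtie), removing PCR duplicates (SAMtools) and counting per gene (HTSeq). Strand-specific counting is not given in the sources used here. A second deposited table of normalized values per sex was not used. The female table had 1 column with no labelled sample, which was not used. Genes with CPM summed over a sex of at least 5 were tested (15158 in females, 15293 in males). TMM-normalized counts were tested by quasi-likelihood in edgeR 4.0.16, fitting the 3 groups of a sex at once, with a Benjamini-Hochberg adjusted p below 0.01, over all genes. Values are TMM-normalized CPM, and log2 values use a prior count of 1. Sequencing depth limits Fezf2 most, with as few as 60 reads. For single genes, exact permutation tests (two-sided) were added, which allow no p below 0.00216 (6 against 6) or 0.00433 (6 against 5). P-values measure the spread between these pups. The software was R 4.3.3 with DESeq2 1.42.0 and limma 3.58.1, and Python 3.11.15 with scipy 1.17.1 for tests and matplotlib 3.10.9 for plots. The fits were tested on simulated data.

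The 9 genes and all marker lists were chosen with earlier results of these data known. Named from each list were up to 3 genes called without nicotine in both sexes in the same direction, otherwise the gene with the smallest p, plus all tested family relatives and, for 4 of the genes, the 3 genes most alike. Values of 2 genes that this rule names are not reported here. Cux1, Eomes, Neurod1, Rora, Slc17a6 and Tbx21 stand in 2 lists each. Alternatives were DESeq2, limma-voom with quality weights, other scalings, filters and thresholds, fits of only the groups compared, each library left out in turn, and the replicate number as a block. Gene positions are mm9 (GENCODE), and promoter sequences are RefSeq on GRCm38.p6.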

Additional observations from a re-analysis of the deposited data

Results flagged for a closer look

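Among 54 sets of values (9 genes in 6 groups), 3 held a sample far from the others, where chance gives about 1 in 20. Female air replicate 2 had 72.5 CPM of Cux2, against 49.7 to 56.6 CPM in the other 5, and 106 CPM of Rorb, against 61.5 to 72.3 CPM. The same sample had the lowest Foxp2 (16.7 CPM) and the lowest summed striatal markers (1163 CPM) of its group. Without it, the log2 fold change of Rorb against air was -0.49 without nicotine and -0.35 with nicotine, and Cux2 lost its call without nicotine. Male no nicotine replicate 7 had 45.1 CPM of Bhlhe22, against 25.6 to 29.8 CPM in the other 4, and without it the log2 fold change of Bhlhe22 was -1.24.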

How the results depend on the processing

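Relative to the values above, the number of the 9 genes past the threshold in females with nicotine was 7 at an adjusted p below 0.05, 5 with DESeq2, 5 in a fit of only the 2 groups, and 1 to 5 when single libraries were left out. Over all genes it was 1888, 1319, 627 and 226 to 930 in these settings, against 651. In females without nicotine, 3 to 8 of the 9 passed when single libraries were left out, against 823 to 2505 of all genes. For males, nicotine against no nicotine, 3 of the 9 passed at an adjusted p below 0.05, 3 with DESeq2, and 0 to 4 with single libraries left out. Over all genes the numbers were 544, 452 and 0 to 246. No other count of the 9 moved by over 1.5 times, and in males without nicotine it was 6 to 8. With the replicate number of the female titles as a block it was 1 with nicotine (Foxp2 lost), 3 without (Cux2, Rorb, Tbr1, Foxp2 and Slc17a7 lost) and 0 between them. Over all genes, 136, 736 and 0 passed under the block. But the replicate numbers did not pair the samples: of 14 same-numbered pairs, 4 had deviations with r above 0.1 (range -0.273 to 0.266) and 5 correlated best with their own number. Under the block, Foxp2 between nicotine and no nicotine was 0.0837 in place of -0.04. In males, Fezf2 between nicotine and no nicotine was 0.239 with limma-voom in place of a negative value.

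Directions that turned when single libraries were left out were all of differences that had not passed. Between nicotine and no nicotine these were, in females, Foxp2 (-0.0966 to 0.0311), Fezf2 (-0.0675 to 0.448) and Cux2 (-0.0134 to 0.223), and in males Fezf2 (-0.256 to 0.307). For the difference between the sexes without nicotine they were Foxp2 (-0.105 to 0.122), Cux2 (-0.109 to 0.126), Tbr1 (-0.0838 to 0.273), Slc17a7 (-0.0400 to 0.311) and Neurod2 (-0.223 to 0.0996), and with nicotine Neurod6 (-0.463 to 0.0629). The change of deep-layer minus upper-layer genes stayed positive when single libraries were left out, at 0.1 to 0.36 with and 0.08 to 0.29 without nicotine in females, and 0.02 to 0.16 and 0.13 to 0.25 in males. Leaving out libraries does not address its dependence on Foxp2. With Tbr1 and Fezf2 alone the changes were -0.27 and -0.38 in females and -0.18 and -0.32 in males, and every exposed group overlapped with air in both forms. The cause of these changes was not tested.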
